A study of Homo sapiens with 18 samples.

Results

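The natriuretic peptide receptors NPR1, NPR2 and NPR3 were followed through the human embryonic stem cell line H1 and its embryoid bodies, with and without an shRNA against KBTBD8. They were chosen by name, as probe sets whose platform annotation gives only 1 of these symbols, and a gene with several probe sets is represented by the brightest, averaged over 18 arrays. Of the 3 receptors 2 had such a probe set, among 18417 genes in all. Both, NPR1 and NPR3, were also among the 14142 genes tested. NPR2 was not analysed here. The receptors were taken up with earlier results of these data known, NPR3 and NPR1 having large differences between embryoid bodies with the KBTBD8 shRNA and with the control shRNA. The embryoid bodies with either shRNA were thus used in choosing NPR1, whose comparisons with them are given as values without a test, and NPR3 is described without a test throughout.

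NPR1 and NPR2 are membrane guanylyl cyclases. Atrial and B-type natriuretic peptide (from NPPA and NPPB) act on NPR1, and C-type natriuretic peptide (from NPPC) acts on NPR2; the bound receptor makes cGMP, which activates cGMP-dependent protein kinase and gates ion channels until phosphodiesterases break it down. NPR3, the clearance receptor, has no cyclase domain. It takes up all of these peptides for degradation and can signal through inhibitory G proteins. The peptides are best known for lowering blood pressure and volume, and C-type peptide and its receptors for bone growth.

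The study measured total RNA on Affymetrix Human Gene 1.0 ST arrays in 6 groups of 3 arrays. Pluripotent H1 cells, grown without feeder cells on Matrigel in mTeSR1 medium, were untransduced, transduced with a lentivirus for a control shRNA, or transduced with a lentivirus for an shRNA that targets KBTBD8. The same 3 treatments were given to embryoid bodies, aggregates of differentiating cells formed in AggreWell plates in APEL medium and kept for 6 days. KBTBD8 recruits substrates to the ubiquitin ligase built on CUL3. All groups come from 1 cell line, and the labels give neither the sequence nor the number of shRNAs used against KBTBD8. The design text calls the samples of a group independent but names no cultures, so the p-values measure the spread between these samples, which may be technical. Embryoid bodies are mixtures, in which fewer cells of a type and less RNA per cell cannot be told apart.

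KBTBD8 was lower under its shRNA in pluripotent cells, at 5.13 and 4.96 against 6.39, 7.09 and 7.03 with the control shRNA (log2 intensity; −1.79 ± 0.26, limma adjusted p 0.00028). In embryoid bodies it was low in every group (4.07 to 5.06), and there the shRNA made a difference of 0.0059 ± 0.26 (adjusted p 1). Both arrays numbered 2 of the KBTBD8 shRNA lay with the other state. The one labelled pluripotent had a correlation of 0.990 with the KBTBD8 shRNA embryoid bodies but 0.908 with the group it is labelled as, and for the one labelled embryoid bodies the values were 0.993 with pluripotent KBTBD8 shRNA cells and 0.914. Each of the other 16 arrays correlated best with its labelled group. These 2 arrays are read apart here. Unless 18 arrays are named, a value comes from the 16 others, with 2 arrays in each KBTBD8 shRNA group and 3 in each other group. The pluripotency markers averaged 9.95 to 10.4 on pluripotent arrays. Among embryoid bodies their mean was lowest on the untransduced arrays (7.52 to 7.70). It was higher in the control group (8.64 to 8.66) and highest where KBTBD8 was targeted (9.01 to 9.12), without overlap. The part of this difference in the receptor levels was not tested.

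The promoter windows of both measured receptors are shown because the array gives a gene-level signal and cannot say which start site was used, and RefSeq places 2 start sites for NPR3. Each window holds the 250 bases before a start site, from RefSeq on GRCh38.p14, plus strand. Capitals mark the GC box GGGCGG, searched on both strands together with the TFAP2 motif GCCNNNGGC and the TCF/LEF motif CTTTGA. The NPR1 window had 2 GC boxes, at −208 to −203 and −161 to −156 from the start. Neither NPR3 window had a match to any of the 3 motifs. Over 35116 RefSeq windows of this length, 42.6% held the GC box, 19.8% the TFAP2 motif and 11.2% the TCF/LEF motif, and a match is a run of letters, not a measured site. The windows had a GC content of 67.6% for NPR1 and of 45.6% and 64.0% for the upstream and downstream NPR3 starts.
NPR1, chr1:153678438-153678687: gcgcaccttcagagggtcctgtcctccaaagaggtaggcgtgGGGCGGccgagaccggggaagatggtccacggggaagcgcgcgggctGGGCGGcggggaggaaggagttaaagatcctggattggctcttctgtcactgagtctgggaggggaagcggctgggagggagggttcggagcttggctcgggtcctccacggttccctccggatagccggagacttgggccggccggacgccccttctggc
NPR3 upstream start, chr5:32690622-32690871: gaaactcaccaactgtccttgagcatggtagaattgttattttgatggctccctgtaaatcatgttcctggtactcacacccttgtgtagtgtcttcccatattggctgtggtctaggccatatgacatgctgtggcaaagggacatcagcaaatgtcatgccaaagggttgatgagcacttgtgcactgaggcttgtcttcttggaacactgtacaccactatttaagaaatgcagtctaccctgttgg
NPR3 downstream start, chr5:32710399-32710648: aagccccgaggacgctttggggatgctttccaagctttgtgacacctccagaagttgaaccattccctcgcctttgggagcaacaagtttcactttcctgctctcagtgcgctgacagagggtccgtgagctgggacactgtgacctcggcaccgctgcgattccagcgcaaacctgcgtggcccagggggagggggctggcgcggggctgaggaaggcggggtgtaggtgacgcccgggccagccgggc

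NPR3 was high in a single group, the embryoid bodies with the control shRNA. Its log2 intensities there were 7.56, 7.38 and 7.33. In embryoid bodies with the KBTBD8 shRNA they were 3.87 and 4.52, with 4.13 on the array read apart. In untransduced embryoid bodies they were 3.81, 3.81 and 3.68. The clearance receptor was thus low in embryoid bodies that had no virus and in those with the KBTBD8 shRNA, and the lowest control shRNA array (7.33) lay above the highest array of either (4.52).

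In pluripotent cells NPR3 was low under every treatment. The untransduced arrays read 3.30, 3.43 and 3.60, and the control shRNA arrays 4.43, 4.32 and 4.17. The KBTBD8 shRNA arrays read 4.17 and 3.98, with 4.43 on the array read apart. In rank within an array, NPR3 stood at the 70.6 to 73.6 percentile on the control shRNA embryoid body arrays and at the 10.5 to 25.5 percentile on the other 13. Only those 3 arrays lay above the 40th percentile, which a gene had to pass on at least 3 arrays to be tested, so NPR3 entered the fit through this group alone and had to differ there. All of its differences are therefore descriptions, and those between other groups lie under the filter on both sides.

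NPR1 had a different order of groups, with its highest level in embryoid bodies with the KBTBD8 shRNA. The log2 intensities were 6.86 and 7.02 there, with 6.49 on the array read apart. Embryoid bodies with the control shRNA read 5.56, 5.87 and 5.28, and untransduced ones 5.03, 5.21 and 5.29. The cyclase receptor was therefore lowest in the 2 embryoid body groups without the KBTBD8 shRNA, whose ranges overlapped, and highest in the third.

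Pluripotent cells lay between these groups for NPR1. The untransduced arrays read 5.83, 6.19 and 5.96, the control shRNA arrays 6.44, 6.48 and 6.42, and the KBTBD8 shRNA arrays 6.34 and 6.28, with 6.58 on the array read apart. NPR1 stood at the 49.1 to 57.7 percentile of the pluripotent arrays, at 63.8 and 66.0 on the KBTBD8 shRNA embryoid body arrays, and at 34.9 to 46.5 on the other embryoid body arrays. It was above the filter on 13 of the 16 arrays.

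**Figure D1:**
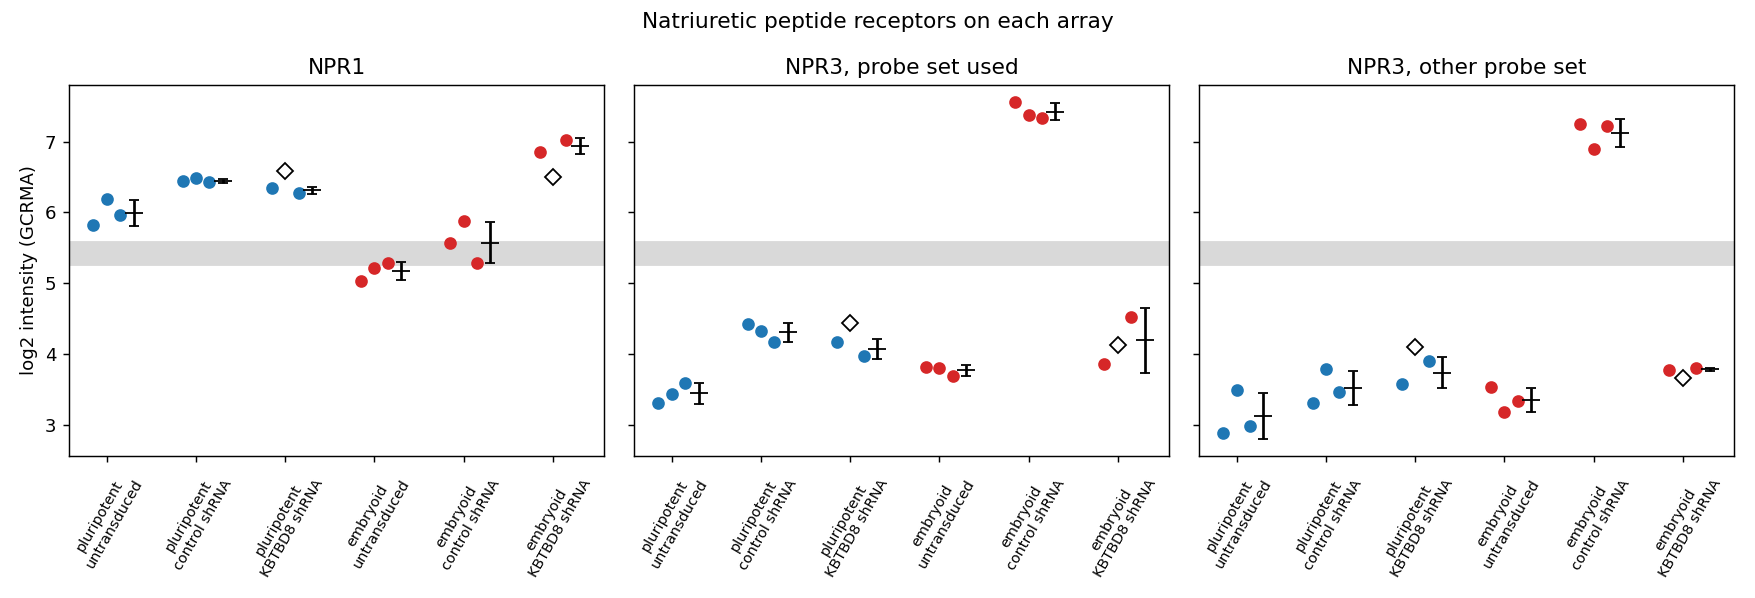
Log2 intensity of NPR1 and of both NPR3 probe sets on each array, by group (blue pluripotent, red embryoid bodies, open diamonds the 2 arrays read apart, black bars group mean ± SD, grey band the arrays' 40th percentiles). NPR3 reads 7.33 to 7.56 in control shRNA embryoid bodies and 4.52 or less on every other array, while NPR1 is highest, at 6.86 and 7.02, in KBTBD8 shRNA embryoid bodies.

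Ordered by group mean, NPR1 went from untransduced embryoid bodies (5.18 ± 0.13, SD, n = 3) to control shRNA embryoid bodies (5.57 ± 0.30, n = 3) and untransduced pluripotent cells (5.995 ± 0.18, n = 3), neighbours whose ranges overlapped. Above them came pluripotent cells with the KBTBD8 shRNA (6.31 ± 0.04, n = 2) and with the control shRNA (6.45 ± 0.03, n = 3), then KBTBD8 shRNA embryoid bodies (6.94 ± 0.11, n = 2), with no overlap between neighbours. For NPR3 the order was untransduced pluripotent cells (3.44 ± 0.15), untransduced embryoid bodies (3.77 ± 0.07), KBTBD8 shRNA pluripotent cells (4.07 ± 0.14), KBTBD8 shRNA embryoid bodies (4.19 ± 0.46), control shRNA pluripotent cells (4.31 ± 0.13) and control shRNA embryoid bodies (7.43 ± 0.12). The third to the fifth of these did not differ beyond their ranges. The gap to the sixth was 3.12. Across the 16 arrays, which share a cell line and fall into these groups, NPR1 and NPR3 correlated at −0.23.

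The second NPR3 probe set, with a lower mean over the 18 arrays (4.12 against 4.55), had the same high group. It read 7.25, 6.90 and 7.22 in control shRNA embryoid bodies and 2.89 to 4.10 on the other arrays. Over the 16 arrays the 2 probe sets correlated at 0.98. Their differences had opposite signs in 1 comparison, KBTBD8 against control shRNA in pluripotent cells (−0.23 on the set used and 0.21 on the other). Both sets were at low intensity there.

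Embryoid bodies with the KBTBD8 shRNA were set against those with the control shRNA, groups in which KBTBD8 itself read under the filter on every array. NPR3 was lower with the KBTBD8 shRNA by −3.23 ± 0.15 (log2 difference ± SE) and NPR1 higher by 1.37 ± 0.14, or 2.58-fold. The clearance receptor and the cyclase receptor thus differed in opposite directions, and for neither did the groups overlap. By size the NPR3 difference was the 1st of the decreases among 14142 genes and that of NPR1 the 18th of the increases, ranks that belong to the reason they were taken up. The KBTBD8 shRNA arrays held NPR3 at the 15.8 to 25.5 percentile, so the size of its difference is less sure than its direction. In this comparison 5.81% of the genes tested were called at an adjusted p under 0.05, 2.84% higher and 2.97% lower (2.48% called on 18 arrays), and nothing is read from it for these receptors. With 18 arrays and the labels as given the differences were −3.25 for NPR3 (3rd in size of all genes) and 1.22 for NPR1 (37th of the increases), and on the second NPR3 probe set, with 16 arrays, −3.34.

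The level these embryoid bodies reached can be set beside that of untransduced ones, a comparison added after the data were seen, in which 41.2% of the genes tested were called (31.7% on 18 arrays). NPR1 was higher with the KBTBD8 shRNA by 1.77 ± 0.14 (3.40-fold; 1.62 on 18 arrays), with no overlap between the groups. NPR3 was higher by 0.42 ± 0.15 at low intensity. Without the KBTBD8 shRNA array numbered 3 that value was 0.097.

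The control shRNA itself was set against no transduction, since it is the reference for the KBTBD8 shRNA. In embryoid bodies, where 44.9% of genes were called (27.1% on 18 arrays), NPR3 was higher with the control shRNA by 3.66 ± 0.14, the 10th largest increase. NPR1 was higher by 0.40 ± 0.13, with overlapping ranges. Its value was 0.21 after quantile normalization and 0.25 without the control shRNA array numbered 2. The NPR3 level from which the KBTBD8 shRNA group differed was thus not the level of virus-free embryoid bodies.

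In pluripotent cells the control shRNA went with higher NPR1, in a comparison in which 29.1% of genes were called, 16.9% higher (12.1% called on 18 arrays). NPR1 rose by 0.45 ± 0.13 (limma adjusted p 0.015), but not on 18 arrays (adjusted p 0.071) or without the untransduced array numbered 1 (0.37, adjusted p 0.056). Its 3 control shRNA arrays lay above the 3 untransduced ones. NPR3 was higher by 0.86 ± 0.14 on the probe set used, with no overlap, and by 0.40 on the other, with overlapping ranges (3.31 to 3.79 against 2.89 to 3.49). It was under the filter on all 6 of these arrays.

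With the KBTBD8 shRNA in pluripotent cells, where its target was lower and 14.1% of genes were called (5.13% on 18 arrays), NPR1 did not pass the threshold (−0.14 ± 0.14, limma adjusted p 0.58). NPR3 differed by −0.23 ± 0.15. On 18 arrays the values were −0.05 and −0.11. Set against untransduced pluripotent cells (added after the data were seen, 28.3% called, 14.1% on 18 arrays), NPR1 differed by 0.32 ± 0.14 (adjusted p 0.11) and NPR3 by 0.63 ± 0.15, a value of 0.53 without the KBTBD8 shRNA array numbered 1.

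**Figure D2:**
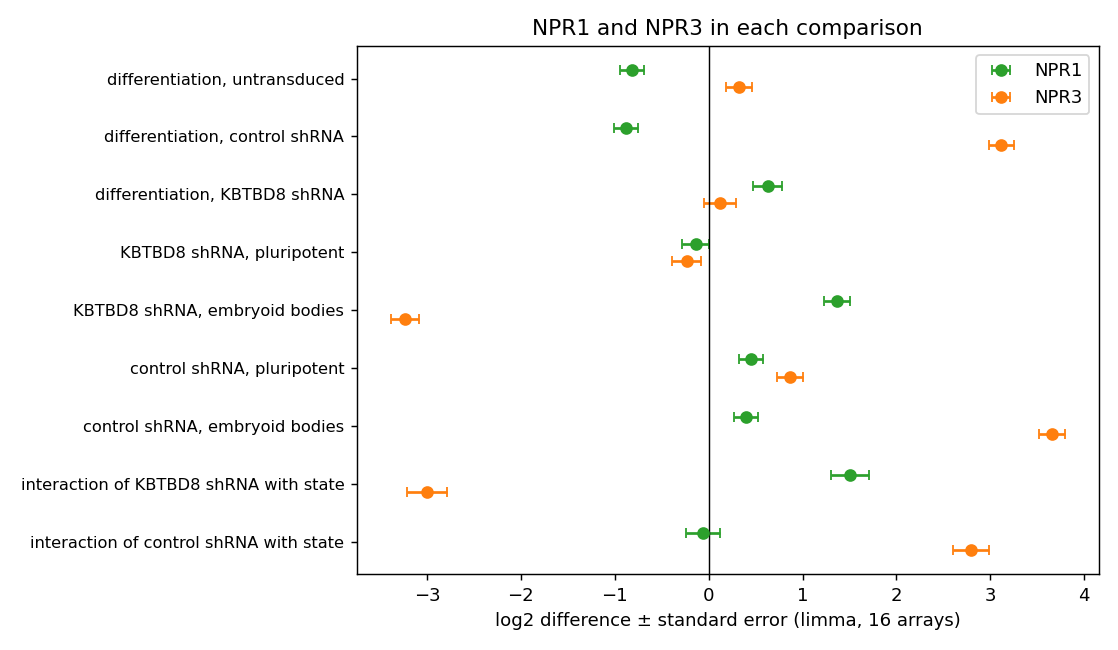
Log2 differences of NPR1 (green) and NPR3 (orange) in each comparison, points with standard errors from limma on 16 arrays. For KBTBD8 shRNA in embryoid bodies NPR3 stands at −3.23 and NPR1 at 1.37, and at −0.23 and −0.14 in pluripotent cells.

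Differentiation was compared within each treatment. NPR1 fell by 0.82 ± 0.13 in untransduced cells (limma adjusted p 5.2e-05; 0.00087 on 18 arrays), where 52.3% of genes were called, 26.3% lower, and 38.6% on 18 arrays. The NPR1 difference was −0.88 ± 0.13 with the control shRNA (48.4% of genes called, 25.3% lower, and 33.9% on 18 arrays). With the KBTBD8 shRNA it was 0.63 ± 0.16 (38.5% called, 17.4% higher). The last 2 values share the embryoid body arrays on which NPR1 was singled out. With the labels as given the KBTBD8 shRNA value was 0.39, and there 0 of 14209 genes (0%) passed limma's test, with 763 at an unadjusted p under 0.05.

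NPR3 differed with differentiation by 0.33 ± 0.14 in untransduced cells and by 0.12 ± 0.17 under the KBTBD8 shRNA (−0.02 on 18 arrays). With 1 array left out the second value ranged from −0.21 to 0.45, so its sign depends on which KBTBD8 shRNA embryoid body array is kept. With the control shRNA NPR3 was higher in embryoid bodies by 3.12 ± 0.14, the 26th largest increase. Of the 3 treatments, the control shRNA thus had the largest NPR3 difference, on the arrays that brought NPR3 through the filter.

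The differences between states were also fitted as interactions, the embryoid body difference minus the pluripotent one. For KBTBD8 against control shRNA (9.88% of genes called) NPR1 gave 1.51 ± 0.20 and NPR3 −2.999 ± 0.22. On 18 arrays they were 1.27 and −3.14. For control shRNA against no transduction (16.9% called) NPR3 gave 2.79 ± 0.19. NPR1 gave −0.06 ± 0.18, and its sign turned without the control shRNA embryoid body array numbered 3 (0.088) or the untransduced pluripotent array numbered 1 (0.027).

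Markers of several cell types also differed between these embryoid bodies. The neural crest list, of which 5 of 5 markers had a probe set, had a mean log2 intensity of 9.17 to 9.31 on the control shRNA arrays that held NPR3, 7.23 to 7.45 with the KBTBD8 shRNA and 5.62 to 5.82 untransduced. FOXD3 lay under the filter on every KBTBD8 shRNA array, and PAX3 and FOXD3 on every untransduced one. The endoderm list (5 of 5) averaged 6.93 to 7.08, 5.31 to 5.52 and 4.80 to 4.96 in the same order, with AFP and TTR under the filter in the other embryoid body groups. The part of these cell types in the NPR3 level was not tested.

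Of the lists for cell types known for natriuretic peptide receptors, only the endothelial one was mostly under the filter in every embryoid body group. The endothelial and endocardial list (7 of 7) averaged 4.84 to 5.12 over all embryoid body arrays, and PECAM1, CDH5, TIE1, EMCN and ERG were under the filter on every one. The lateral and cardiac mesoderm list (6 of 7) averaged 5.59 to 5.71 with the control shRNA, 5.05 to 5.39 with the KBTBD8 shRNA and 4.94 to 5.12 untransduced. HAND1, HAND2 and TBX5 were under the filter throughout. Of the other 3 only MEF2C was called, and it lay above the filter only in control shRNA embryoid bodies. MEF2C thus entered the fit through this group alone and had to differ there. Its differences are descriptions, 2.64 for the control shRNA against untransduced and −2.52 for the KBTBD8 shRNA against the control. Smooth muscle and fibroblast markers (6 of 6) averaged 5.59 to 5.74, 5.28 on both arrays and 5.26 to 5.43, with DCN and LUM under the filter throughout. Cartilage markers (4 of 4) averaged 6.01 to 6.18, 5.87 to 6.20 and 6.21 to 6.37. MATN1 was under the filter throughout, and ACAN on every KBTBD8 shRNA array. The neural plate and forebrain list (5 of 5) averaged 7.97 to 8.08, 8.74 to 8.83 and 9.32 to 9.39 in the same order. Between the shRNAs SIX3 (3.23) and LHX2 (1.62) were higher with that against KBTBD8, PAX6 was lower (−0.55), and OTX2 (−0.32) and SOX1 (−0.10) were not called. Their part in the levels of either receptor was not tested.

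The rest of the pathway was read from a list of 40 genes, of which 39 had a probe set (PDE1A was not analysed here) and 27 were tested. In the fit of 18 arrays the 2 arrays read apart enter the shared error of every comparison, and a difference called on 16 arrays but not on 18 is marked below as 16 only. Among peptides, NPPC was above the filter on 16 of the 16 arrays, NPPB on 14, NPPA on 4 and OSTN, which encodes a peptide that binds NPR3, on 0. All control shRNA pluripotent arrays were among the 4 of NPPA, which would not have been tested without that group. The NPPA differences from that group are therefore descriptions, and its calls there stay in the counts. Group means ran from 6.87 to 7.30 for NPPC, from 5.25 to 6.27 for NPPB, from 4.94 to 5.64 for NPPA and from 3.03 to 3.57 for OSTN. NPPB thus had the widest range of group means of the 4, each on its own probe set's scale.

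The ligand, processing and breakdown list (6 of 9 tested) had 4 members that rose and 0 that fell with the control shRNA in each state, beside 29.1% of all genes called in pluripotent cells and 44.9% in embryoid bodies. Its median differences were 0.47 and 0.33, against 0.043 and 0.034 over all genes tested. In pluripotent cells the 4 were NPPB (0.82, adjusted p 0.0022), FURIN, a proprotein convertase (0.51, 0.0013), NPPA (0.48) and MME, the peptidase neprilysin (0.47, 0.012; 16 only). NPPB read 6.34, 5.99 and 6.50 with the control shRNA and 5.47, 5.46 and 5.42 untransduced. In embryoid bodies they were NPPC (0.43, adjusted p 0.0058), MME (0.38), NPPA (0.29) and FURIN (0.25), all 16 only. MME and NPPA read under the filter on all of these embryoid body arrays, which limits their differences. NPPC read 7.08, 7.53 and 7.29 against 6.84, 6.94 and 6.81.

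With differentiation MME fell in all 3 treatments (−2.76 ± 0.13 untransduced, −2.86 with the control shRNA and −2.88 with the KBTBD8 shRNA). Under the KBTBD8 shRNA the value on 18 arrays was −1.05 (adjusted p 0.79). This breakdown enzyme read 7.29 to 8.12 on the pluripotent arrays and 4.49 to 5.20 on the embryoid body arrays. All of the latter lay under the filter, so MME entered the fit of 16 arrays through the pluripotent arrays alone. Its falls on 16 arrays are therefore descriptions, and their calls stay in the counts. The list had 0 members that rose and 2, 5 and 1 that fell in these comparisons, with medians of −0.21, −0.40 and −0.19, beside 52.3%, 48.4% and 38.5% of all genes called. The others were IDE, the insulin-degrading enzyme (−0.62 untransduced, and −0.38 with the control shRNA, 16 only), and, with the control shRNA, NPPB (−0.64), NPPA (−0.41) and FURIN (−0.26, 16 only). NPPA was lower with the KBTBD8 shRNA than with the control shRNA in pluripotent cells (−0.50, 16 only, and −0.38 on 18 arrays). It was the 1 member called there, beside 14.1% of all genes, and it would not have been tested without that control group. In embryoid bodies no member was called (0 of 6, median 0.067), beside 5.81% of all genes. There MME differed by 0.048 and, on 18 arrays, by 1.06.

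Among the other guanylyl cyclases (3 of 6 tested) GUCY1B1, the beta subunit of the nitric oxide receptor, changed most. It read 8.13, 8.02 and 8.05 in untransduced embryoid bodies, 7.29, 7.29 and 7.28 with the control shRNA, and 8.02 and 8.08 with the KBTBD8 shRNA (6.03 on the array read apart). It rose with differentiation (1.47 untransduced, and 0.97 with the control and 1.91 with the KBTBD8 shRNA, both 16 only) and under the KBTBD8 shRNA in embryoid bodies (0.76, adjusted p 0.00013), and it fell with the control shRNA there (−0.78, adjusted p 5.8e-06). On 18 arrays these last 2 values were 0.089 (adjusted p 0.96) and −0.78 (adjusted p 0.25). In this list GUCY1A2 fell with differentiation under the control shRNA (−0.60) and rose with it in pluripotent cells (0.45, 16 only), and GUCY2D rose with the control shRNA in embryoid bodies (0.36, 16 only).

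Of the genes that carry the cGMP signal on or out of the cell (6 of 10 tested), PRKG1, a cGMP-dependent protein kinase, rose under the KBTBD8 shRNA in both states. It read 7.36 and 7.45 in KBTBD8 shRNA embryoid bodies, 6.79, 6.62 and 6.87 with the control shRNA and 6.13, 6.05 and 6.29 untransduced. The rise over the control shRNA was 0.64 ± 0.13 in embryoid bodies (adjusted p 0.0056; 0.69 and 0.0093 on 18 arrays) and 0.68 in pluripotent cells (adjusted p 0.0027; 0.56 and 0.025). It was the 1 member called in either comparison, beside 5.81% of all genes in embryoid bodies and 14.1% in pluripotent cells. PRKG1 fell with differentiation in untransduced cells (−0.998), where ABCC4, a cGMP exporter, rose (0.68) and VASP, a kinase substrate, fell (−0.47). With the control shRNA ABCC5, another exporter, rose in both states (0.53 and 0.53), PRKG1 rose in embryoid bodies (0.61) and fell in pluripotent cells (−0.33, 16 only), and ABCC4 fell in embryoid bodies (−0.47, 16 only).

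The list of phosphodiesterases that act on or respond to cGMP (8 of 11 tested) held PDE1B, a calcium and calmodulin dependent enzyme whose highest group was the same as that of NPR3. It read 7.26, 7.26 and 7.25 in control shRNA embryoid bodies, 5.90 and 6.21 with the KBTBD8 shRNA (4.97 on the array read apart) and 5.50, 5.57 and 5.59 untransduced. PDE1B fell under the KBTBD8 shRNA in embryoid bodies (−1.20 ± 0.13, adjusted p 1.7e-05; −1.56 and 0.0034 on 18 arrays), as did PDE2A (−0.48, adjusted p 0.017; −0.21 and 0.70 on 18 arrays). Among embryoid bodies PDE2A was above the filter only on the control shRNA array numbered 2, which limits its differences there. With the control shRNA in embryoid bodies PDE1B rose (1.70) and PDE10A fell (−1.68), while PDE2A (0.43) and PDE5A (0.34) rose, both 16 only. Differentiation of untransduced cells raised PDE10A (2.19) and lowered PDE3A (−0.75), PDE5A (−0.68) and PDE2A (−0.40, 16 only). In all 3 members were up and 4 down there, beside 52.3% of all genes called. PDE1B rose with differentiation in all 3 treatments (0.37, 2.04 and 0.81), with the first and the third 16 only (the third 0.16 on 18 arrays). PDE6D, a prenyl-binding partner of the photoreceptor enzyme, fell in all 3 (−0.30, −0.33 and −0.57), each 16 only (the third −0.11 on 18 arrays). PDE6D is counted in this list although it is a partner of such an enzyme and not one itself.

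Of the inhibitory G proteins and the phospholipase linked to NPR3 signalling (4 of 4 tested), none was called under the KBTBD8 shRNA in either state. Of all genes tested, 5.81% were called there in embryoid bodies and 14.1% in pluripotent cells. PLCB3 fell with differentiation in all 3 treatments (−1.06, −1.01 and −0.88), and GNAI1 rose (0.51, 0.51 and 0.71), with both KBTBD8 shRNA values 16 only (−0.27 and 0.36 on 18 arrays). With the control shRNA PLCB3 was higher (0.45 in pluripotent cells and 0.49 in embryoid bodies) and GNAI1 lower (−0.43 in both), all 16 only. GNAI2 rose with differentiation (0.70, 0.30 and 0.52), with the second and the third 16 only (the third 0.16 on 18 arrays), and fell with the control shRNA in embryoid bodies (−0.29, 16 only).

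Over the whole pathway list, the share called lay near that of all genes or above it, except under the KBTBD8 shRNA in pluripotent cells, where it was below. Under the KBTBD8 shRNA in embryoid bodies 2 genes rose and 2 fell of 27 (14.8%, against 5.81% of all genes tested). On 18 arrays these were 1 and 1, beside 2.48% of all genes. In pluripotent cells 1 rose and 1 fell (7.41% against 14.1%), and 1 and 0 on 18 arrays, beside 5.13%. With the control shRNA 12 rose and 6 fell in embryoid bodies (66.7% against 44.9%). On 18 arrays these were 3 and 2 of 27, beside 27.1% of all genes. In pluripotent cells 9 rose and 4 fell (48.1% against 29.1%), and 5 and 0 on 18 arrays, beside 12.1%. Differentiation called 8 higher and 9 lower in untransduced cells (63% against 52.3%), and 6 and 7 on 18 arrays, beside 38.6%. With the control shRNA it called 6 and 10 (59.3% against 48.4%), and 2 and 7 on 18 arrays, beside 33.9%. With the KBTBD8 shRNA it called 4 and 6 (37% against 38.5%), and 0 and 0 on 18 arrays, beside 0%. The 2 groups of each comparison share arrays with those of others, so these counts are not independent.

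**Figure D3:**
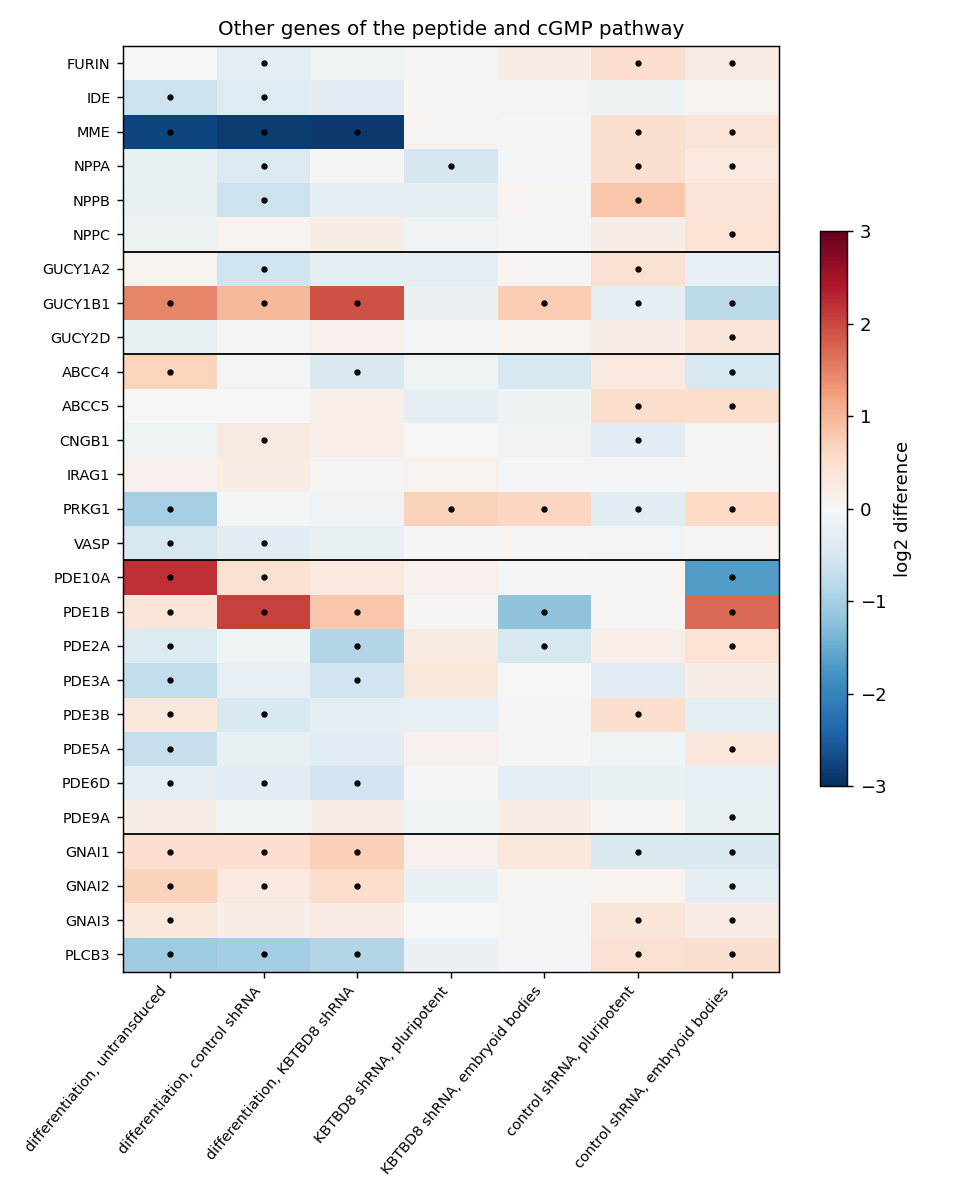
Log2 differences (colour, limited to 3 either way) of the 27 tested pathway genes, grouped by role, in 7 comparisons on 16 arrays, with a dot where limma's adjusted p was under 0.05. MME stands at −2.76, −2.86 and −2.88 with differentiation, and PDE1B stands at 1.70 with the control shRNA and −1.20 with the KBTBD8 shRNA in embryoid bodies.

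The genes whose profile over the 16 arrays was most like that of NPR3 were LAMA4, a laminin chain (Pearson correlation 0.98), FMOD, a matrix proteoglycan (0.98), RFX4, a transcription factor (0.98), AXIN2, an inhibitor in WNT signalling that is also its target (0.97), and COLEC12, a scavenger receptor (0.96). With the control shRNA in embryoid bodies they were higher than untransduced by 2.29, 1.27, 2.39, 1.80 and 2.15, and with the KBTBD8 shRNA lower than the control shRNA by −1.83, −1.12, −2.26, −1.32 and −1.40. For NPR1 the most alike were IGSF1, an immunoglobulin superfamily membrane protein (0.93), S100A16, a calcium-binding protein (0.88), TEAD3, a transcription factor (0.88), LYN, a tyrosine kinase (0.87), and TCN2, a vitamin B12 carrier (0.87). In KBTBD8 shRNA embryoid bodies IGSF1 was above the control shRNA by 1.21, S100A16 by 0.42, TEAD3 by 0.39, LYN by 0.94 and TCN2 by 0.44. The arrays fall into groups, so these correlations mostly describe group means, and they carry no p. The genes were picked on these same arrays, so their differences follow from the choice and are descriptions. LAMA4, FMOD and RFX4 read under the filter outside control shRNA embryoid bodies, so like NPR3 they were tested only through that group.

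**Figure D4:**
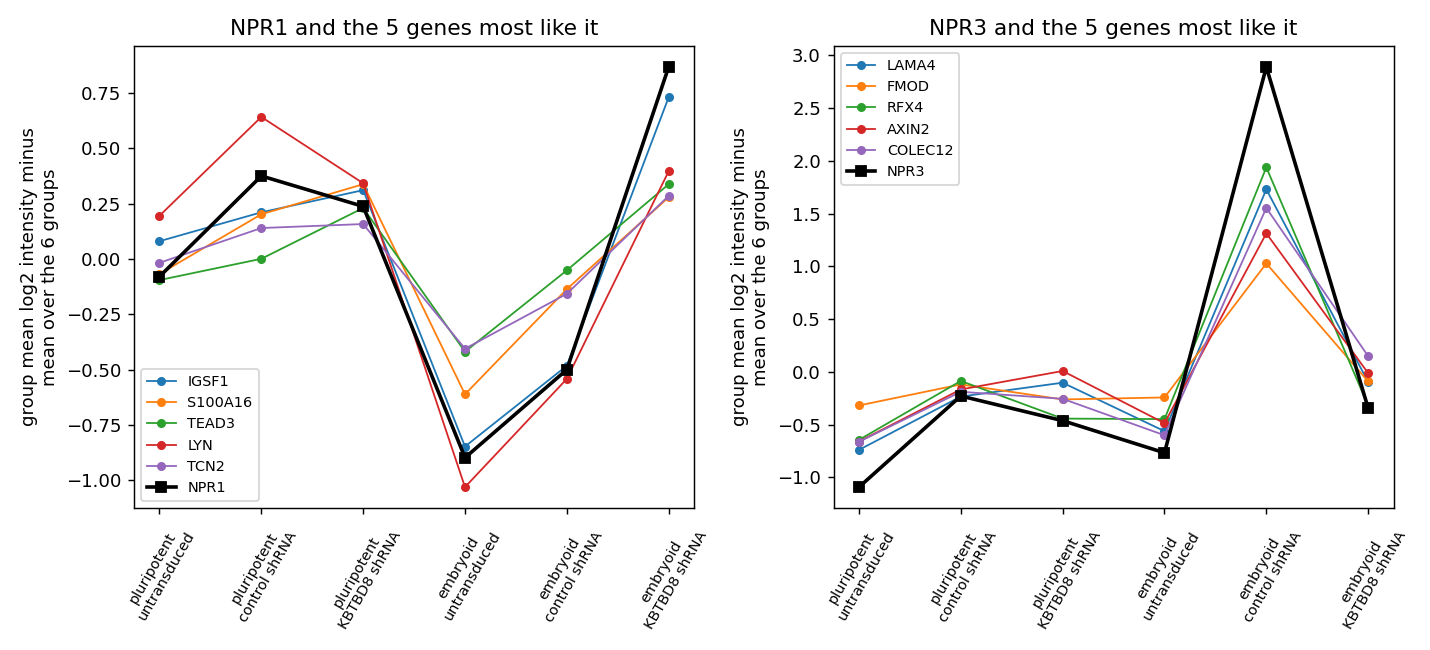
Group means of NPR1 and of NPR3 (black squares) with the 5 genes most correlated with each over 16 arrays, as log2 intensity minus the mean over the 6 groups. The NPR3 set peaks in control shRNA embryoid bodies, and IGSF1 follows NPR1 to its highest mean in KBTBD8 shRNA embryoid bodies.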

How the data were processed

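The deposited values are log2 intensities that the authors made with GCRMA (named without a version in the submitters' processing notes). The base 2 was taken from the method and the range of the values, and whether all 18 arrays were normalized together is not given in the sources used here. Raw array files were not analysed here, and the number of arrays limits the precision. Of 33297 probe sets, 19460 carried 1 symbol, 1754 several and 12083 none. Symbols were updated through Entrez identifiers with RefSeq GRCh38.p14 (31 had no entry). NPR1 stands on probe set 7905606 and NPR3 on 8104746, with 8104758 as its second.

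A gene was tested when above the 40th percentile of an array on at least 3 arrays. limma 3.58.1 in R 4.3.3 fitted 1 mean per group on 16 arrays (10 residual degrees of freedom) with empirical Bayes variances, Benjamini-Hochberg adjustment over all 14142 genes and a threshold of 0.05. The fit of 18 arrays, labels as given, had 14209 genes and 12 residual degrees of freedom. The scripts were tested on simulated data. Python 3.11.15, with pandas 2.3.3 and matplotlib 3.10.9, made the figures.

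The receptors and the lists were chosen with earlier results of these data known. Named were the receptors and KBTBD8, each peptide, up to 4 called members with the largest difference per pathway list and comparison, and the 5 genes most correlated with each receptor, with some members of a list given only by their count. Alternatives were 18 arrays, quantile normalization, other filters, probe set rules and variance settings, the groups compared alone, a replicate block, and each array left out. No 2 arrays were identical (highest correlation 0.992). Of same-numbered arrays of different groups, 12 of 36 pairs had deviations correlated above 0.1 (range −0.38 to 0.43), so numbers were not taken to pair samples throughout. All pairs between control shRNA pluripotent, KBTBD8 shRNA pluripotent and KBTBD8 shRNA embryoid body arrays did (0.32 to 0.43), but a group of 2 arrays has mirrored deviations and leaves only 2 such pairs a comparison.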

Additional observations from a re-analysis of the deposited data

Results flagged for a closer look

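Differences between states were singled out because the interaction of treatment with state was itself fitted. For NPR1 the KBTBD8 shRNA difference was 1.51 larger on the log2 scale in embryoid bodies than in pluripotent cells. For NPR3 the same interaction was −2.999, and the interaction of control shRNA with state was 2.79. NPR3 passed the filter only through the control shRNA embryoid bodies, and both receptors were chosen with these results known, so the fits describe the size of these differences. Whole arrays were compared with their groups as described in the report, and within groups of 3 no receptor value was tested as an outlier.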

How the results depend on the processing

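Of 154 values under alternatives other than leaving out an array, 141 kept their direction and their side of the threshold, 9 lost the call, 3 gained it and 1 turned. Of 140 with 1 array left out the counts were 127, 8, 2 and 3. NPR2 gave no value under any setting. For NPR1 the difference with the control shRNA in embryoid bodies was 0.40 on 18 arrays, 0.21 after quantile normalization and 0.25 to 0.54 with 1 array left out. In pluripotent cells it was 0.45 on 18 arrays (limma adjusted p 0.071) and 0.37 to 0.55 with 1 left out. The NPR1 difference with differentiation under the KBTBD8 shRNA was 0.39 on 18 arrays. Its interaction of control shRNA with state ranged from −0.21 to 0.088 with 1 array left out. NPR3 differed with differentiation under the KBTBD8 shRNA by −0.020 on 18 arrays and by −0.21 to 0.45 with 1 left out. In untransduced cells its difference was 0.28 with the mean of its probe sets and 0.33 with the groups compared alone. It ranged from 0.26 to 0.40 with 1 array left out. The counts of calls above include NPR3, and NPR1 in shRNA embryoid bodies, only to show what the processing moves. In the comparisons with untransduced cells added after seeing the data, NPR3 in KBTBD8 shRNA embryoid bodies differed by 0.40 on 18 arrays. The value was 0.42 with the groups compared alone, 0.35 after quantile normalization and 0.42 with trended and robust variances. With 1 array left out it ranged from 0.097 to 0.75, and in pluripotent cells from 0.53 to 0.73. The replicate number was also used as a block, although the numbers were not taken to pair the samples. The NPR3 difference in KBTBD8 shRNA embryoid bodies was then 0.42. NPR1 in KBTBD8 shRNA against untransduced pluripotent cells passed with the block (0.39, limma adjusted p 0.038). That NPR1 difference was 0.23 to 0.42 with 1 array left out. The block changed no other NPR1 call. The cause of these changes was not tested. NPR3 lay at low intensity outside 1 group, which limits its small differences.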
